A study of Mus musculus with 37 samples.

Results

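The genes described here are the ligands and receptors of axon guidance: semaphorins with their plexin and neuropilin receptors, ephrins with their Eph receptors, Slits with their Robo receptors, and netrins with the receptors Dcc and Unc5. They were chosen by symbol among the protein-coding genes of the mouse RefSeq annotation and each had at least 1 region of open chromatin inside the gene or within 2 kb of it. The rule took 69 of 17678 protein-coding genes with a region. They were 7 secreted semaphorins (Sema3 genes), 13 membrane semaphorins, 9 plexins, 2 neuropilins, 9 A-type and 5 B-type Eph receptors, 5 A-type and 3 B-type ephrins, 3 Slits, 4 Robos, 2 netrins and 5 netrin receptors. The last 2, Unc50 and Unc5cl, share the Unc5 prefix but are not netrin receptors, and they are counted with the rest.

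Growing axons read these cues at their tips: a ligand that is secreted or held on another cell binds its receptor and turns, stops or attracts the growth cone. Plexins bind semaphorins, with a neuropilin as co-receptor for most secreted ones. Eph receptors and ephrins signal between touching cells in both directions. Robo1 and Robo2 mediate repulsion from Slits, and Dcc and the Unc5 receptors mediate attraction to and repulsion from netrins. Several of these genes stay active in the adult brain, where they act on synapses, and some of them also pattern blood vessels.

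ATAC-seq reads out open chromatin, since the Tn5 transposase inserts sequencing adapters into accessible DNA. Nuclei came from the nucleus accumbens of mice 60 to 210 days old, compound heterozygous for a Cre-dependent nuclear-envelope tag (Rosa-LSL-Sun1-GFP) and for Pvalb-IRES-Cre or Sst-IRES-Cre, which place Cre under control of the parvalbumin (PV) or the somatostatin (SST) gene. Tagged nuclei were pulled down with an antibody to GFP (IP), and the supernatant holds the nuclei that were not bound (unbound fraction, UF). Each library came from a single mouse. All isolation buffers held sodium butyrate, which inhibits histone deacetylases, so that every group shares it.

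PV-Cre mice were taken 60 min after 1 injection of saline or of 3 mg/kg amphetamine (AMPH), with 4 IP and 4 UF libraries for each treatment. Other PV-Cre mice were taken 24 h after the last of 6 daily injections, with 4 UF libraries after each treatment, 4 IP libraries after AMPH and 3 IP libraries after saline. The SST-Cre mice all received saline, with 3 IP and 3 UF libraries, and the labels give no time for them. Counts per region are deposited in 1 table for each of these 3 sets, with 0.651 M to 15.1 M counts (M, mega) per library over all 37 libraries. A gene's count is the sum over its regions, and levels are given in CPM, normalised counts scaled to library size, which rise with a gene's length and number of regions, so that levels are compared between libraries and not between genes. Members held many regions, with a median of 12 per gene in the PV 60 min table against 4 over all genes.

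Marker lists were read beside the labels of the fractions. In saline PV libraries at 60 min, 11 of 12 PV interneuron markers were called higher in IP, and in SST libraries 6 of 7 tested SST markers were. The PV markers were also higher in SST IP, with 8 of 12 called higher and 1 lower and a summed level of 872 to 896 CPM in IP against 529 to 566 CPM in UF. Of 14 markers of spiny projection neurons, the main cell type of this region, 8 were called lower and none higher in PV IP, whereas 5 were higher and 2 lower in SST IP. Of 3 tested cholinergic interneuron markers, 2 were higher in IP in both lines. Markers of oligodendrocytes fell in IP in both, with 11 of 12 called lower in PV and 12 of 12 in SST; their summed level was 257 to 344 CPM in PV IP against 495 to 650 CPM in UF, and 313 to 350 against 607 to 653 CPM in SST. Markers of endothelial and mural cells, the cells of blood vessels, moved the other way: 6 of 10 passed as higher in PV IP at 60 min, 4 of 10 as higher and 1 lower in SST IP, and 10 of 11 higher in PV IP at 24 h. In such bulk libraries, a change in the number of nuclei of a type and a change in accessibility per nucleus cannot be told apart.

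Promoters of 6 members carry findings described below, and their sequence is shown because called regions overlap them. These 6 were picked by hand and not by a rule. Other members also have called regions within 1 kb of a start. Each line gives the 250 bases before a transcription start listed by RefSeq, 5′ to 3′ on the gene's strand, from RefSeq on GRCm38.p6 (mm10). Capitals mark bases inside a 200 bp region that was called higher or lower in IP than in UF in saline PV libraries at 60 min or in SST libraries. The windows are chr16:21204545-21204794 (plus strand) for Ephb3, chr10:93640799-93641048 (plus) for Ntn4, chr9:57939862-57940111 (plus) for Sema7a, chr3:95160170-95160419 (plus) for Sema6c, chr3:89279646-89279895 (minus) for Efna1 and chrX:73756853-73757102 (plus) for Plxnb3. The windows of Efna1, Sema7a and Plxnb3 and most of that of Ephb3 lie within the annotated span of the gene, downstream of its outermost end, so that they precede an internal start and can overlap transcribed sequence.
Ephb3: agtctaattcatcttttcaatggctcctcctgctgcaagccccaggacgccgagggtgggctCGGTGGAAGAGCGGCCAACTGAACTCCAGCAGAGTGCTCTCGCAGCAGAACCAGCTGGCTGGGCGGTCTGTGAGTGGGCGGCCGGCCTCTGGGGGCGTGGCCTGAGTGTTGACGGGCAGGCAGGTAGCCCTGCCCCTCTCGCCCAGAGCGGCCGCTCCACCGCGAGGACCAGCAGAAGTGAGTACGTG
Ntn4: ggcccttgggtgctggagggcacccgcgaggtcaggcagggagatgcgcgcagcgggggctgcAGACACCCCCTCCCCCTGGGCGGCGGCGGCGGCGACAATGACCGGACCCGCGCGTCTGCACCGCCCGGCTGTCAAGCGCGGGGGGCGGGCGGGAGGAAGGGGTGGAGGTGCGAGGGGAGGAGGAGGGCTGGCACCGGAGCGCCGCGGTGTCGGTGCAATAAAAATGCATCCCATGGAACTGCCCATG
Sema7a: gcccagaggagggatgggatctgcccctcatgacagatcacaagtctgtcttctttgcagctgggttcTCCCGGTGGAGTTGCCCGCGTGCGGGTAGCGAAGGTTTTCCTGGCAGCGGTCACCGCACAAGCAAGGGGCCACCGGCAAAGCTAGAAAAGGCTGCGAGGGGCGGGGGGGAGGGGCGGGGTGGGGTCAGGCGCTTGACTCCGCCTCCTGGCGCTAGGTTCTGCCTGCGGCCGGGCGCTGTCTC
Sema6c: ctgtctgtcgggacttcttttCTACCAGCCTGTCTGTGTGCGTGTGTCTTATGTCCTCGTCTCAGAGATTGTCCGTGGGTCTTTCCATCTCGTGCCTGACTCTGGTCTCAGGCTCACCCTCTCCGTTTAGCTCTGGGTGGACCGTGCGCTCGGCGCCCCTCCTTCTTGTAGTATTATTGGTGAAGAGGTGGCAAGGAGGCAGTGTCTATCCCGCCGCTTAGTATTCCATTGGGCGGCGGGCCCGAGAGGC
Efna1: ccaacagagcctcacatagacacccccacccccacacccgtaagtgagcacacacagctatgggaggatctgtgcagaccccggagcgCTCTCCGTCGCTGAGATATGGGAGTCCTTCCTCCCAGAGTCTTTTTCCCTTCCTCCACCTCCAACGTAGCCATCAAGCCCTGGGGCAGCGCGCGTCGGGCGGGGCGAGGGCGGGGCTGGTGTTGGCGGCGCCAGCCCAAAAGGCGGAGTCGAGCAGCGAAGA
Plxnb3: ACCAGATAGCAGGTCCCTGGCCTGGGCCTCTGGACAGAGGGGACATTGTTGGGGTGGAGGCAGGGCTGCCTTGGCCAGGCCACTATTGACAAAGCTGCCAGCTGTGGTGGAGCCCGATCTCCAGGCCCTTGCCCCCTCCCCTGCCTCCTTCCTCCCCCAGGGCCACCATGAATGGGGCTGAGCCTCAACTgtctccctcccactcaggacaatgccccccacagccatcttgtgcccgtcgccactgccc

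The promoters of Ephb3, Ntn4, Sema7a and Sema6c lie under regions that were more open in an IP fraction, and those of Efna1 and Plxnb3 under regions that were more open in UF. The Ephb3 promoter region averaged 66.2 ± 11 CPM in PV IP against 32.9 ± 2.76 CPM in UF (SD, 4 libraries a group), a log2 fold change of 1.02 ± 0.16 (SE; edgeR adjusted p = 0.000107). At the Plxnb3 promoter, SST IP averaged 0.776 ± 0.272 CPM and UF 12.9 ± 1.45 CPM (SD, n = 3 each), a log2 fold change of -3.99 ± 0.29 (edgeR adjusted p = 8.06e-20). This promoter region was lower in PV IP too, by a log2 fold change of -2.51 ± 0.36. The region over the Efna1 promoter differed by -0.99 ± 0.26 in PV and by -1.85 ± 0.19 in SST.

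At the Sema6c promoter the direction differed between the Cre lines, with log2 fold changes of 0.53 ± 0.2 in PV and -0.39 ± 0.13 in SST, both past the threshold. Sema7a had 0.56 ± 0.2 in PV, which passed, and -0.38 ± 0.17 in SST, which did not (edgeR adjusted p = 0.0582). For Ntn4 the capitals come from the SST region, at 0.72 ± 0.29, since the called PV region, at 1.36 ± 0.37, reaches only 2 bases into the window. The letters GGGCGG of the GC box, searched on both strands, occurred in 5 of these 6 promoters, all but that of Plxnb3. They occurred in 72% of 75 member promoters, which belong to 59 of the 69 members, and in 42.6% of 21263 protein-coding promoters of the same length. Median GC content was 64.4% in the member promoters and 55.6% in all. The TATA box letters TATAAA were in 2.67% of member promoters against 11.6% of all, CCAAT in 28% against 35.4%, and the SOX letters ACAAAG, which the Plxnb3 window holds, in 10.7% against 14.9%. The letters TGANTCA of AP-1 were in 4% against 6.13%, TAATTA of homeodomain factors in 4% against 4.31%, and the MEF2 motif in 1.33% against 3.06%.

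The first comparison asks which guidance genes are more or less open in PV interneuron nuclei than in the surrounding nuclei. In saline PV libraries at 60 min, 13 members were called higher in IP and 8 lower (edgeR, adjusted p under 0.05), 30.4% of the 69, where 25% of all genes tested were called. By direction this was 18.8% higher and 11.6% lower among members, against 12.2% and 12.8% of all genes. Their median log2 fold change was 0.06, against 0 for all genes. Among ligands, the netrin Ntn4, Slit2 and 5 semaphorins (Sema3g, Sema7a, Sema6c, Sema5a and Sema6d) rose, and the ephrins Efnb3, Efna1 and Efna2 fell with Sema4a and Sema3f. Among receptors, the plexins split: Plxna1 and Plxna4 rose and Plxnb1 and Plxnb2 fell. No A-type or B-type Eph receptor fell, and Ephb3, Epha10 and Epha7 rose.

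**Figure D1:**
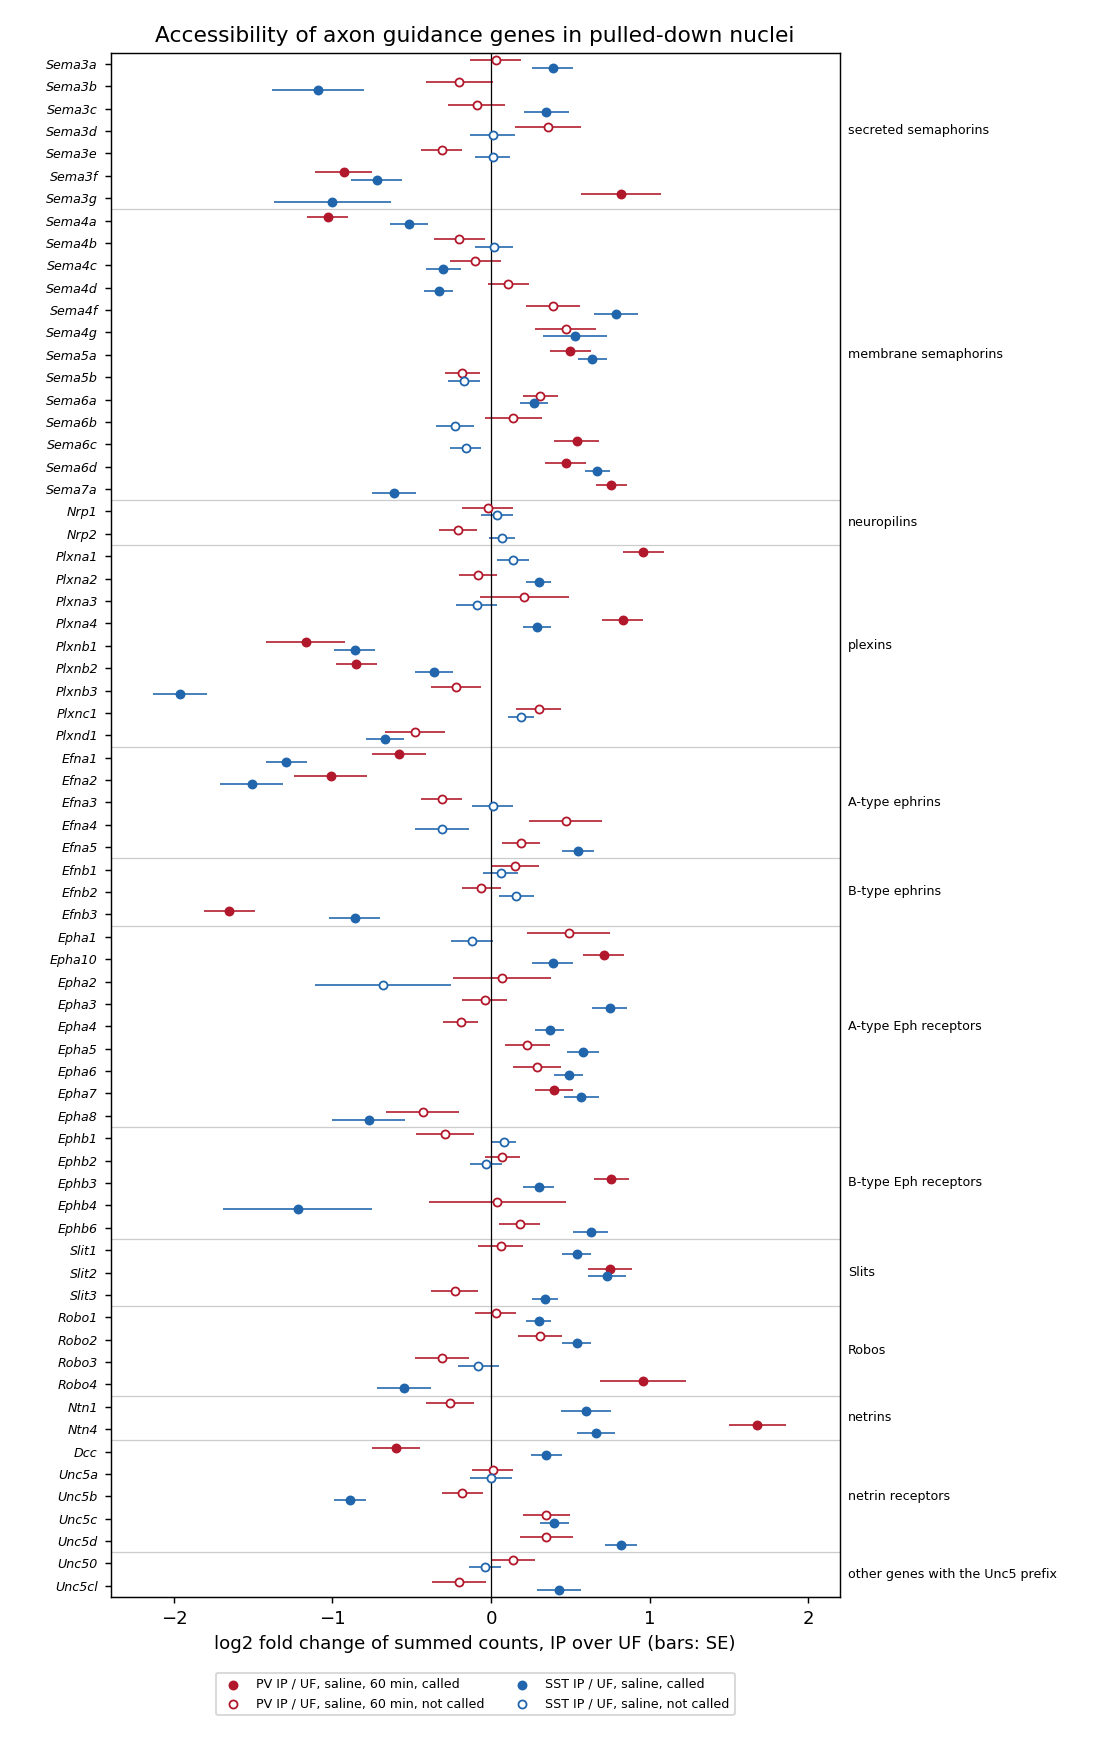
Log2 fold change of IP over UF for each of the 69 members (x axis; bars are SE), grouped by family, in saline PV libraries at 60 min (red) and saline SST libraries (blue); filled points passed the adjusted threshold. The points run from -1.65 to 1.68 in PV and from -1.96 to 0.82 in SST, with Ntn4 farthest to the right and Plxnb3 farthest to the left.

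Ntn4, a secreted netrin related to laminin that binds into basement membranes, had the largest rise among members. Its levels were 97.1, 79.9, 52 and 62 CPM in the 4 PV IP libraries and 26.3, 19.3, 22.4 and 21.7 CPM in UF. Every IP library was above every UF library, and the log2 fold change was 1.68 ± 0.18 (SE; edgeR adjusted p = 3.72e-05). Ntn1, the classical attractant of commissural axons, had 34.5, 25.9, 28.4 and 38.1 CPM in IP and 38.3, 42.1, 33.6 and 36.2 CPM in UF. These groups overlap, and the log2 fold change of -0.26 ± 0.15 did not pass.

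Of the Slits, secreted repellents, Slit2 rose. It had 87.1, 90.8, 57 and 91.7 CPM in IP and 47.1, 48.4, 51.1 and 45.1 CPM in UF, a log2 fold change of 0.75 ± 0.14 (edgeR adjusted p = 0.00187). The groups did not overlap, although replicate 4 of IP was well below the other IP libraries. Slit1, at 0.06 ± 0.14, and Slit3, at -0.23 ± 0.15, did not pass; Slit3 ranged from 232 to 389 CPM in IP and from 290 to 382 CPM in UF.

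Semaphorins went both ways. Sema7a, which is anchored to the membrane by a lipid and signals through integrins and Plxnc1, had 85.4, 92.7, 89.4 and 102 CPM in IP and 54.2, 52.3, 54.5 and 55.3 CPM in UF. The groups were well apart, with a log2 fold change of 0.76 ± 0.1 (edgeR adjusted p = 0.000182). Sema3g, a secreted semaphorin known from blood vessels, was low throughout, at 10.4, 13.3, 9.17 and 6.98 CPM in IP and 5.55, 6.42, 5 and 5.35 CPM in UF. Its log2 fold change of 0.82 ± 0.25 passed (edgeR adjusted p = 0.028) but lost its call when any of 4 libraries was left out (replicate 2 of IP and replicates 1, 4 and 5 of UF), with adjusted p from 0.0612 to 0.0912. The transmembrane semaphorins Sema6c (0.54 ± 0.14), Sema5a (0.5 ± 0.13) and Sema6d (0.47 ± 0.13) rose by less. In the other direction, Sema4a, a membrane semaphorin studied in immune cells and retina, was 28.5, 29.2, 29.9 and 29.7 CPM in IP and 66.8, 65.1, 55.3 and 50.4 CPM in UF. Its IP libraries were nearly alike and all below UF, with a log2 fold change of -1.03 ± 0.13 (edgeR adjusted p = 8.58e-05). Sema3f, a secreted ligand that works through Nrp2, had 15.2, 15.1, 25.8 and 20.3 CPM in IP and 35.3, 41.3, 35.9 and 32 CPM in UF, a log2 fold change of -0.93 ± 0.18.

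Ephrins were called only downward here. Efnb3, a transmembrane ephrin known as a barrier at the spinal cord midline, had 21.2, 13.7, 20.4 and 14.9 CPM in IP and 59.4, 52.8, 50 and 55 CPM in UF. This was the largest fall among members, at -1.65 ± 0.16 on the log2 scale (edgeR adjusted p = 2.23e-05). With only those regions that belong to no other gene it was -1.42. Efna2 fell by 1.01 ± 0.23 on the log2 scale, from 16.4 ± 2.35 CPM in UF to 8.16 ± 2.31 CPM in IP (SD, n = 4 each). Without the 2 kb flanks its log2 fold change was -0.78 and not called (edgeR adjusted p = 0.177). Efna1 had 20.2, 33.4, 32.6 and 28.1 CPM in IP and 34.2, 44.9, 43.5 and 47 CPM in UF. The lowest UF library was only just above the highest IP library, and the log2 fold change of -0.58 ± 0.17 (edgeR adjusted p = 0.0211) lost its call when any of 4 libraries was left out, with adjusted p from 0.0501 to 0.0698.

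Turning to receptors, Dcc, through which netrins attract axons, had 128, 78.6, 87.8 and 74.9 CPM in IP and 155, 130, 132 and 134 CPM in UF. All IP libraries were below all UF libraries, replicate 1 only narrowly, with a log2 fold change of -0.6 ± 0.15 (edgeR adjusted p = 0.0099). The repulsive netrin receptors Unc5a (0.01 ± 0.13), Unc5b (-0.18 ± 0.13), Unc5c (0.35 ± 0.15) and Unc5d (0.35 ± 0.17) did not pass. Counted within 1 kb of its ends only, Unc5a was called higher, at 1.14 (edgeR adjusted p = 0.0185). Over the whole gene Unc5a was called lower in the other 3 PV comparisons. Its log2 fold changes there were -0.3 after AMPH at 60 min, and -0.59 after saline and -0.43 after AMPH at 24 h. Among Robos, Robo4, known from vascular endothelium, passed: it had 8.52, 11.8, 20.7 and 13.8 CPM in IP and 6.44, 7.36, 8.31 and 5.87 CPM in UF. Its log2 fold change of 0.96 ± 0.27 (edgeR adjusted p = 0.0173) was 0.69 without replicate 4 of IP (adjusted p = 0.0563) and 0.67 without the 2 kb flanks (adjusted p = 0.0837). Endothelial and mural markers summed to 209 to 328 CPM in these IP libraries and 117 to 164 CPM in UF, and their part in the result was not tested. The Slit receptors Robo1 (0.03 ± 0.13) and Robo2 (0.31 ± 0.14) did not pass, nor did Robo3 (-0.31 ± 0.17).

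Plxna1, a receptor that pairs with neuropilins, had 165, 119, 131 and 126 CPM in IP and 69.8, 58.6, 69.2 and 76.5 CPM in UF. Every IP library lay far above UF, with a log2 fold change of 0.96 ± 0.13 (edgeR adjusted p = 0.000133). Plxna4, a main receptor of Sema3a with Nrp1, had 458, 399, 307 and 416 CPM in IP and 252, 213, 210 and 205 CPM in UF, a log2 fold change of 0.83 ± 0.13. Counted within 1 kb of the gene's ends only, Plxna4 was at 0.22 (adjusted p = 0.39), so that its call rests on regions inside the gene. Plxnb1, the receptor of Sema4d, had 14.3, 15.7, 30.9 and 11.4 CPM in IP and 37, 38.4, 41.6 and 46.4 CPM in UF, a log2 fold change of -1.17 ± 0.25 (edgeR adjusted p = 0.00318). Within 1 kb of its ends only, Plxnb1 was at -1.02 and not called (edgeR adjusted p = 0.257). Plxnb2, another receptor of the Sema4 group, fell by 0.85 ± 0.13 on the log2 scale. The neuropilins, co-receptors that plexins share, did not pass: Nrp1 had a log2 fold change of -0.02 ± 0.16 and Nrp2 of -0.21 ± 0.12, and their groups overlapped.

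Among Eph receptors, Ephb3, which binds B-type ephrins, had 76.7, 80.2, 83 and 88.2 CPM in IP and 48.1, 47.6, 45 and 50.6 CPM in UF. The spread within each group was small beside the gap, and the log2 fold change was 0.76 ± 0.11 (edgeR adjusted p = 0.000187). Epha10, an Eph receptor with no kinase activity, had 79.4, 98.2, 95.9 and 93.5 CPM in IP and 50.8, 57.9, 66.7 and 47 CPM in UF, a log2 fold change of 0.71 ± 0.13. Epha7, an A-type receptor, rose by less, from 114 ± 7.57 CPM in UF to 153 ± 20.5 CPM in IP (SD, n = 4 each; log2 fold change 0.4 ± 0.12).

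The replicate numbers were taken to pair IP and UF libraries in this set, from the correlations given below. With the number as a block, 22 members were called higher and 13 lower, where 39.3% of all genes were called, and all 21 calls described above remained. Robo2 (0.29), Unc5c (0.32), Unc5d (0.32) and Slit3 (-0.25) then passed as well, with edgeR adjusted p of 0.025, 0.0122, 0.0439 and 0.0445.

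**Figure D2:**
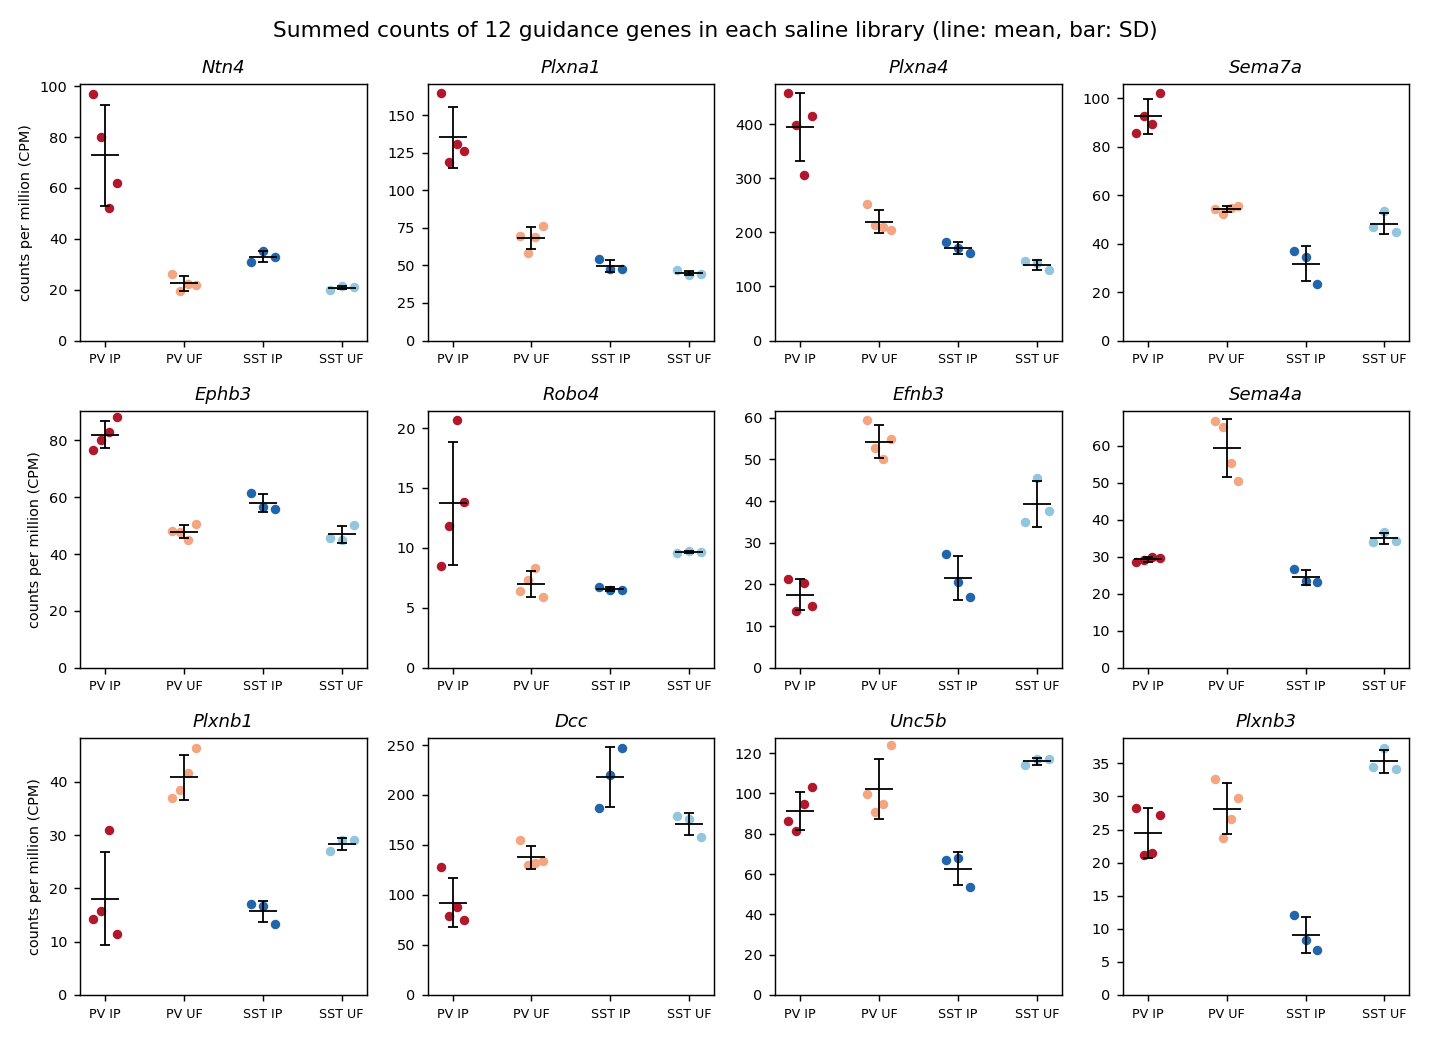
Level in CPM (y axis) of 12 members in each saline library, for PV at 60 min (4 IP and 4 UF libraries) and SST (3 and 3); each point is 1 library, the line is the group mean and the bar its SD. In PV, Ntn4 ran from 52 to 97.1 CPM in IP and from 19.3 to 26.3 CPM in UF, and in SST Plxnb3 ran from 6.83 to 12.1 CPM in IP and from 34.2 to 37.3 CPM in UF.

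The same question in SST interneurons gave more calls. In SST libraries 29 members were called higher in IP and 18 lower, 68.1% of the 69, where 58.3% of all genes tested were called. Higher calls were 42% of members against 28.9% of all genes, and lower calls 26.1% against 29.4%, with a median log2 fold change of 0.06 against -0.01. All 3 Slits, both netrins, 6 of 9 A-type Eph receptors and 3 of 5 netrin receptors rose. Falls were found among A-type ephrins (Efna1 and Efna2), in Efnb3, in the B-type plexins with Plxnd1, and in Unc5b. The semaphorins Sema3b, Sema3f, Sema3g, Sema4a, Sema4c, Sema4d and Sema7a fell too, as did Robo4, Epha8 and Ephb4. The counts of all members together summed to 6010 to 6790 CPM in SST IP and 5190 to 5460 CPM in UF, groups that did not overlap. In PV at 60 min the sums were 5300 to 6460 and 5100 to 5670 CPM and did overlap.

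Among SST ligands, the Slits rose together. Slit2 had 110, 134 and 158 CPM in IP and 86.7, 83.5 and 71.8 CPM in UF, a log2 fold change of 0.73 ± 0.12 (edgeR adjusted p = 5.01e-05). Slit1 had 110, 99 and 100 CPM in IP and 72.7, 72.5 and 66.8 CPM in UF (0.54 ± 0.09), and Slit3 rose by 0.34 ± 0.08 on the same scale, which was 0.08 and not called within 1 kb of its ends (edgeR adjusted p = 0.641). No IP library of any Slit fell within its UF range. The rise of Slit1 came from regions inside the gene: within 1 kb of its ends the log2 fold change was -1.93 (edgeR adjusted p = 0.000854).

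Both netrins rose in SST as well. Ntn4 had 30.8, 35.1 and 33 CPM in IP and 20, 21.5 and 21 CPM in UF, a log2 fold change of 0.66 ± 0.12. Ntn1 had 16.1, 15.1 and 18 CPM in IP and 11.1, 9 and 12.3 CPM in UF, a log2 fold change of 0.6 ± 0.16 (edgeR adjusted p = 0.0033), which was -0.36 and not called within 1 kb of the gene's ends. Of semaphorins, Sema4f had 30, 43.9 and 40 CPM in IP and 24.2, 21 and 20.4 CPM in UF (0.79 ± 0.14), and the transmembrane Sema6d had 288, 291 and 303 CPM against 192, 183 and 181 CPM (0.67 ± 0.08). Sema5a rose by 0.64 ± 0.09. The secreted Sema3b fell by 1.09 ± 0.29 on the log2 scale at low levels, averaging 2.48 ± 1.07 CPM in IP where UF averaged 5.21 ± 0.459 CPM (SD, n = 3 each). Sema3g fell by 1 ± 0.37, at 1.82, 1.14 and 0.589 CPM in IP and 2.49, 2.22 and 2.29 CPM in UF, and this call was lost with DESeq2 (adjusted p = 0.081) and without any of 5 libraries. Sema7a, higher in PV IP, was lower in SST IP, at 37.1, 34.6 and 23.5 CPM against 46.7, 53.3 and 44.7 CPM in UF (-0.61 ± 0.14; edgeR adjusted p = 0.00148).

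A-type ephrins showed large falls in SST. Efna1 had 29.9, 21.9 and 22 CPM in IP and 56.8, 62.6 and 61.3 CPM in UF, a log2 fold change of -1.29 ± 0.13 (edgeR adjusted p = 2.75e-07). Efna2 had 6.75, 3.58 and 4.36 CPM in IP and 14.4, 14 and 14 CPM in UF (-1.51 ± 0.2). Efna5, which guides retinal axons, rose instead, by 0.55 ± 0.1. Efnb3 was lower in IP over all its regions, with -0.86 ± 0.16, but with only those regions that belong to no other gene its log2 fold change was 0.17 and not called (adjusted p = 0.449), so that its SST call rests on shared regions.

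Of the netrin receptors in SST, Unc5d rose most. It had 225, 256 and 276 CPM in IP and 160, 135 and 133 CPM in UF, a log2 fold change of 0.82 ± 0.1 (edgeR adjusted p = 1.88e-06). Unc5c rose by 0.4 ± 0.09, and Dcc by 0.35 ± 0.1, with 187, 220 and 247 CPM in IP and 179, 176 and 158 CPM in UF. Unc5b, also known from blood vessels, went down: 66.9, 67.8 and 53.3 CPM in IP against 114, 117 and 117 CPM in UF, a log2 fold change of -0.89 ± 0.1 (edgeR adjusted p = 1.62e-06). Unc5a, at 0 ± 0.13, did not pass. Robo2 (0.54 ± 0.09) and Robo1 (0.3 ± 0.08) rose, Robo3 (-0.08 ± 0.13) did not pass, and Robo4 fell, at 6.75, 6.5 and 6.48 CPM in IP and 9.54, 9.71 and 9.65 CPM in UF (-0.55 ± 0.17; edgeR adjusted p = 0.0104).

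Plxnb3, a plexin known from oligodendrocytes, had the largest fall of any member. It had 12.1, 8.29 and 6.83 CPM in IP and 34.5, 37.3 and 34.2 CPM in UF, a log2 fold change of -1.96 ± 0.17 (edgeR adjusted p = 5.52e-08). The highest IP library was far below the lowest UF library. The 12 oligodendrocyte markers had a median log2 fold change of -1.68 in the same comparison, and their part in the result was not tested. Plxnb1 (-0.86 ± 0.13), Plxnb2 (-0.36 ± 0.12) and the vascular Sema3e receptor Plxnd1 (-0.67 ± 0.12) fell too, while Plxna2 and Plxna4 rose by 0.3 ± 0.08 and 0.29 ± 0.09. Neither neuropilin passed, with Nrp1 at 0.04 ± 0.1 and Nrp2 at 0.07 ± 0.08.

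Eph receptors were more open in SST IP in most cases. Epha3, an A-type receptor that binds Efna5, had 85.4, 107 and 112 CPM in IP and 63.9, 62.8 and 54.2 CPM in UF, a log2 fold change of 0.75 ± 0.11 (edgeR adjusted p = 2.28e-05). Epha5 had 169, 194 and 233 CPM against 134, 136 and 129 CPM (0.58 ± 0.1). Epha4, Epha6, Epha7 and Epha10 rose by 0.37 to 0.57. Epha8 fell by 0.77 ± 0.23, at 2.73 to 3.65 CPM in IP and 4.97 to 5.48 CPM in UF. Of the B-type receptors, the kinase-inactive Ephb6 (0.63 ± 0.11) and Ephb3 (0.3 ± 0.1) rose. Ephb4, the receptor of venous endothelium, was near the lower end of what could be counted, at 1.3, 0.65 and 0.942 CPM in IP and 1.12, 1.92 and 3.84 CPM in UF; these groups overlap, and its log2 fold change of -1.22 ± 0.47 (edgeR adjusted p = 0.0342) was -0.59 without replicate 3 of UF (adjusted p = 0.305). A list of 8 members with roles in blood vessels held Ephb4, Efnb2, Efna1, Plxnd1, Robo4, Unc5b, Nrp1 and Sema3g. It was chosen with earlier results of these data known and is not complete, since it leaves out others such as Epha2. Of these 8, 6 fell and none rose in SST IP, where 29.4% of all genes were called lower and 28.9% higher. Nothing about vessel genes as a group is read from this count. The calls of Ephb4 and Sema3g among these 6 were lost in 4 and 6 of 13 alternatives. In these libraries endothelial and mural markers summed to 135 to 147 CPM in IP and 119 to 132 CPM in UF.

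Next, the IP over UF differences of the saline sets were compared with each other. Of the 21 PV calls, 15 were called the same way in SST, which is 71.4% of the PV calls and 31.9% of the 47 SST calls. Over all genes tested in both, calls of the same direction were 53.7% of the PV calls and 22.5% of the SST calls, so that the overlap is read against an all-gene overlap of that size. Among members, Dcc, Robo4, Sema3g and Sema7a, 4 of the 21 PV calls, were called in opposite directions, where 10.8% of the PV calls over all genes were. The calls of Sema3g in both lines and the PV call of Robo4 were lost under some alternatives, as given above. In a joint test of the difference, 11 members had a higher PV than SST log2 fold change and 7 a lower one, 26.1% of the members, where 22.2% of all genes tested were called. The number of lower differences depended on the fit: it was 14 with the replicate number as a block (13 higher), 11 with DESeq2 (13 higher), 4 within 1 kb of gene ends (6 higher), and 4 to 12 when 1 library was left out, with 12 without IP replicate 1 of PV and 4 without UF replicate 1 or 3 of SST. The Cre line cannot be told apart from the table it comes from, whose regions also differ.

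Plxnb3 differed by 1.74 ± 0.25 on the log2 scale (edgeR adjusted p = 0.000104). Its PV groups overlapped, at 28.3, 21.1, 21.4 and 27.2 CPM in IP and 32.6, 23.7, 26.6 and 29.7 CPM in UF. This PV total sums opposite regions: of 6 tested, 4 were called lower and 1 higher, with log2 fold changes from -2.51 to 1.77. In SST, 5 of 6 tested Plxnb3 regions were lower and 0 higher. Sema7a differed by 1.36 ± 0.19 (edgeR adjusted p = 6.4e-05). The other members with a higher PV fold included Sema3g (1.81 ± 0.46), Robo4 (1.51 ± 0.36), Ntn4 (1.02 ± 0.23), Plxna1 (0.82 ± 0.17), Unc5b (0.71 ± 0.17) and Sema6c (0.7 ± 0.18). For Plxna1, the SST libraries ran from 47.3 to 54.2 CPM in IP and from 43.8 to 46.7 CPM in UF, a gap far smaller than in PV.

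Dcc had the lowest difference, at -0.95 ± 0.2 (edgeR adjusted p = 0.0025), with opposite calls in the Cre lines. Within 1 kb of the gene's ends this difference was -0.55 and not called (edgeR adjusted p = 0.45), nor were the fold changes of -0.32 in PV (adjusted p = 0.69) and 0.25 in SST (adjusted p = 0.134). The netrin ligand Ntn1 (-0.87 ± 0.23) and Epha3 (-0.8 ± 0.18) also had a lower PV fold. Epha3 in PV had 48.4, 39.2, 35.2 and 42.5 CPM in IP and 41.5, 45.4, 45.1 and 35.3 CPM in UF, ranges that lie over each other, while its SST groups were apart. Efnb3, Slit3, Epha4 and Sema4a made up the rest of the 7, from -0.79 to -0.51.

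**Figure D3:**
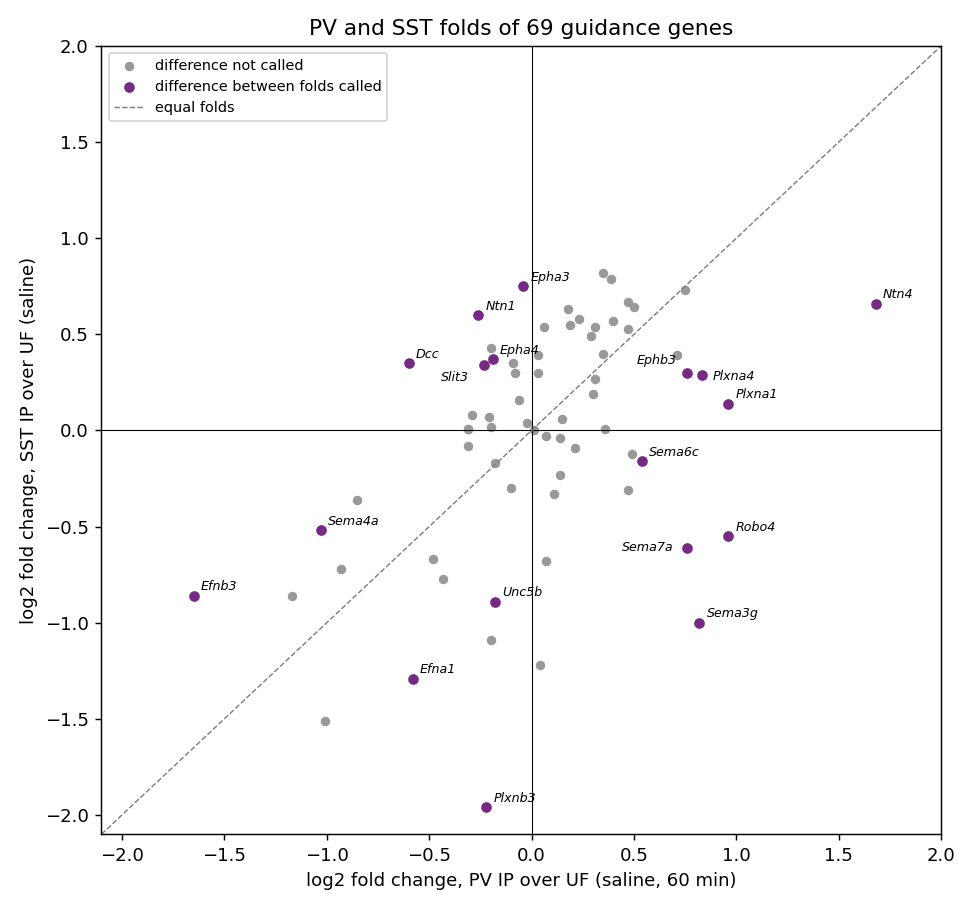
Log2 fold change of IP over UF in saline PV libraries at 60 min (x axis) against that in saline SST libraries (y axis), 1 point per member; purple points had a called difference between both. Plxnb3, Sema7a, Robo4 and Sema3g lie below the diagonal with differences of 1.36 to 1.81, and Dcc, Ntn1 and Epha3 lie above it with differences of -0.95 to -0.8.

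How the PV pattern held in other mice was examined in the remaining IP and UF sets. After AMPH at 60 min, 17 members were called higher and 13 lower, 43.5% of the 69, where 28.9% of all genes were called. At 24 h, 11 were higher and 7 lower after saline (26.1% of members, where 14.9% of all genes were called, 7.13% higher and 7.74% lower), and 13 higher and 9 lower after AMPH (31.9%, all genes 24.4%). Ntn4, Plxna1, Plxna4, Sema7a, Ephb3, Epha10 and Robo4 were called higher, and Efnb3 and Sema4a lower, in all 4 PV comparisons. The share of all genes called alike in all 4 was not computed, so that this list is not read as a trait of the members. Several of these calls were lost under alternatives: after saline at 24 h, Epha10 lost its call in 9 of 16 alternatives (0.17 within 1 kb of gene ends and 0.29 without the second Iso2 UF library), Sema7a in 5, Ephb3 in 3 (0.29 without that library) and Plxna1 in 2 (0.42 without it). Robo4 lost its call in 6 of 16 after AMPH at 60 min, and Plxna4 was not called within 1 kb of its ends in any of the 4. The saline sets at 60 min and 24 h share no library, and 11 members were called the same way in both, 52.4% of the calls at 60 min and 61.1% of those at 24 h, with none opposite. Over all genes tested in both, the same shares were 30.7% and 50.5%, with 11 genes opposite. Only Plxnd1 was called in both directions among the 4, at -0.55 ± 0.16 after AMPH at 60 min and 0.43 ± 0.14 after AMPH at 24 h.

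Ntn4 at 24 h had 42.3, 43.6 and 43 CPM in saline IP and 14.1, 15.2, 10.3 and 10.1 CPM in UF, a log2 fold change of 2.07 ± 0.33 (edgeR adjusted p = 8.16e-06). After AMPH it had 37.3, 53.4, 51.4 and 41.4 CPM in IP and 10.9 to 15.8 CPM in UF (1.79 ± 0.22). Both sets lie apart by a wide margin. With the Iso term of the fit, the saline folds of this set rest on the 2 Iso2 UF libraries, as described below. Efnb3 fell by 1.56 ± 0.28 after saline and by 1.65 ± 0.21 after AMPH. Ephb1, a B-type Eph receptor, was called at 24 h alone, with 92.2, 79 and 86.1 CPM in saline IP and 139, 152, 156 and 143 CPM in UF (-0.8 ± 0.16; edgeR adjusted p = 0.000299). At 60 min its saline IP libraries spread from 124 to 256 CPM and overlapped UF.

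At 24 h the largest rises included members known from blood vessels, and Ephb4 and Epha2 are named here after their values were seen. Robo4 had 17.7, 30.4 and 11.2 CPM in saline IP and 2.57, 3.94, 3.02 and 3.77 CPM in UF (2.62 ± 0.5; edgeR adjusted p = 0.000137), and its AMPH libraries had 33.8, 27.4, 24 and 16.1 CPM in IP and 2.63, 2.84, 1.31 and 1.45 CPM in UF (3.84 ± 0.33). Every IP library was above every UF library. Ephb4 had 31.5, 53.2 and 27.1 CPM in saline IP and 2.57, 11.3, 16 and 11.6 CPM in UF (1.49 ± 0.35). Epha2, an A-type receptor of epithelia and vessels, had 12.1, 23.2 and 6.38 CPM in saline IP and 7.72, 3.38, 4.23 and 5.8 CPM in UF, groups that overlap (1.6 ± 0.51). Endothelial and mural markers moved with these genes: they summed to 390 to 487 CPM in saline IP and 91.3 to 127 CPM in UF at 24 h (330 to 491 and 90.4 to 129 CPM after AMPH), with 10 of 11 called higher and Cldn5, a tight junction protein of brain endothelium, at a log2 fold change of 3.18 ± 0.39. Their part in the result was not tested. Of the 8 members listed above for blood vessels, 3 were called higher at 24 h after saline and 5 after AMPH, and none lower. Of all genes, 7.13% and 12.3% were called higher. Nothing about vessel genes as a group is read from these counts either.

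All 3 saline IP libraries at 24 h carry the title mark Iso2, while UF has 2 of Iso1 and 2 of Iso2. The fits hold Iso as a term, but the saline IP group has no Iso1 library. The 2 Iso1 UF libraries therefore do not enter the saline folds. These compare the 3 IP libraries with the 2 Iso2 UF libraries. Without the first or the second of the saline IP libraries, 11 members in all were called in place of 18.

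The second question of the study is whether AMPH changes open chromatin in these fractions. No member was called higher or lower after AMPH in PV IP or UF at 60 min or 24 h, nor was any other gene, so that the share called was 0% in all 4 comparisons with edgeR; DESeq2 called no member either. Without adjustment, p was under 0.05 for 0 members in IP and 7 in UF at 60 min, and for 3 in IP and 0 in UF at 24 h. Over all genes this was so for 250 of 16572 and 607 of 16895 at 60 min, and for 598 of 16213 and 557 of 15788 at 24 h. Robo4 was too low to be tested in UF at 24 h, which left 68 members there. Log2 fold changes of AMPH over saline ran from -0.66 to 0.34 in IP and from -0.37 to 0.35 in UF at 60 min, and from -0.4 to 0.27 and from -1.03 to 0.78 at 24 h. With median SEs of 0.11 to 0.18 per member, small shifts would not be detectable with these libraries.

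**Figure D4:**
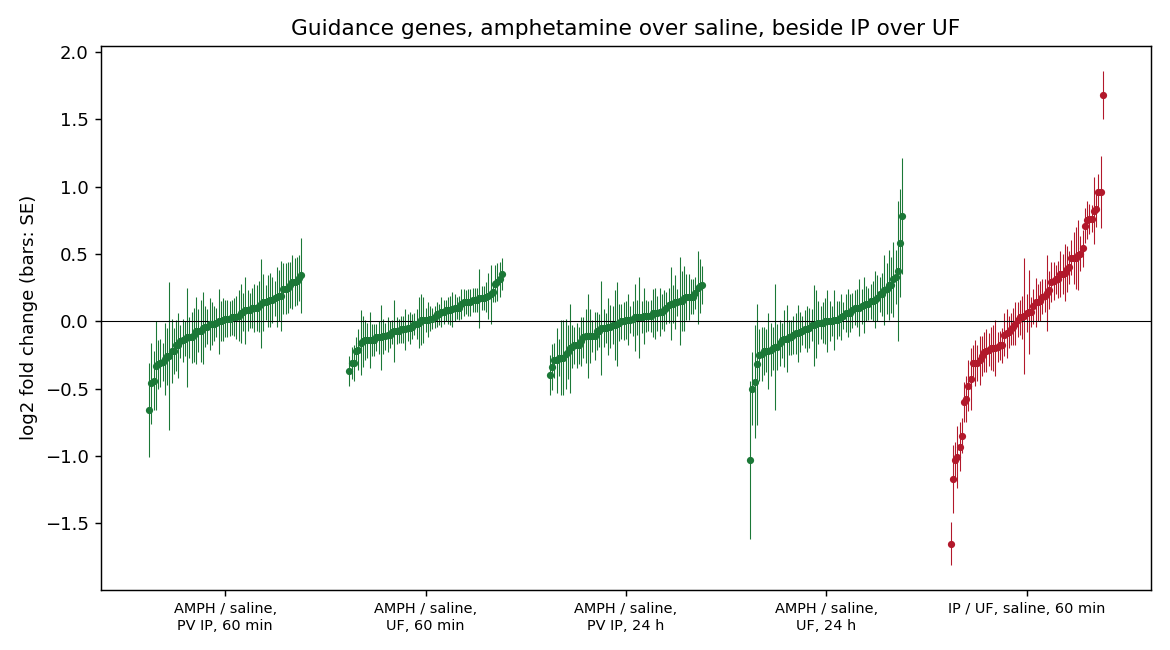
Log2 fold change of AMPH over saline (y axis; bars are SE) for each member in IP and UF at 60 min and 24 h, beside the log2 fold change of IP over UF in saline libraries at 60 min on the same scale. No AMPH difference was called, and at 60 min they stayed between -0.66 and 0.35, while the fraction differences ran from -1.65 to 1.68.

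In IP at 60 min the smallest p belonged to Unc5a, with 79.5, 84.9, 69.1 and 87.4 CPM after AMPH and 81.5, 96.1, 91.2 and 124 CPM after saline. The groups overlapped, with a log2 fold change of -0.3 ± 0.14 (unadjusted p = 0.0592 from edgeR). Efna1 (-0.44) and Sema4a (0.32) followed. In UF at 60 min it was Sema4c, a membrane semaphorin, with 70.4, 86.8, 75.9 and 71.8 CPM after AMPH and 84.5, 115, 101 and 90.4 CPM after saline. This difference of -0.37 ± 0.11 had an unadjusted p of 0.00332 and an edgeR adjusted p of 0.97. Sema3c (0.35) and Plxnb1 (-0.31) came next.

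At 24 h in IP, Plxnd1 had the smallest p, with 105, 75.2, 64.6 and 59.2 CPM after AMPH and 72.6, 107 and 79.7 CPM after saline (-0.4 ± 0.15; edgeR adjusted p = 1). Nrp2 (-0.29) and Plxnb1 (-0.34) followed. With the Iso term, folds in this comparison rest on the 3 Iso2 libraries of each treatment. The 1 Iso1 library after AMPH does not enter them. In UF at 24 h the smallest p were those of Plxnb3 (-0.5), Efna4 (0.78) and Epha2 (-1.03), the last with 4.11, 3.25, 5.24 and 0.909 CPM after AMPH. The AMPH difference was also compared between IP and UF, and no member was called at either time. In edgeR, 0 members at 60 min and 2 at 24 h had an unadjusted p under 0.05. Over all genes this was so for 76 of 17109 at 60 min and 658 of 16548 at 24 h. The 2 members were Sema5a (0.46 ± 0.2) and Nrp2 (-0.36 ± 0.17), named after their values were seen.

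Single regions show where in a gene the fractions differ. Of 1353 tested member regions in saline PV at 60 min, 329 were called higher in IP and 300 lower, 24.3% and 22.2%. Of all regions tested, 44.8% were called, 21.6% higher and 23.2% lower. In SST, 333 of 1289 member regions were higher and 241 lower (25.8% and 18.7%), where 46.8% of all regions were called, 24.1% higher and 22.7% lower. Within 1 kb of a transcription start, 13.1% of the tested PV regions of members were higher and 8.28% lower, and inside genes 26.2% and 24.1%. The same split was not computed over all regions, so that nothing particular to the members is read from it.

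Many members held regions of both directions. In PV this was so for 42 of the 69 members (60.9%), against 26.8% of all genes. Members hold more regions, and among genes with 10 or more tested regions it was 34 of 37 members (91.9%) against 85.6% of all genes. Plxna2, a semaphorin receptor, had 13 higher and 13 lower of 44 tested regions, and its gene total was not called in PV. Dcc had 20 lower and 4 higher regions of 41 tested in PV, and 12 lower and 15 higher of 55 in SST.

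In some other members the called regions lay mostly or wholly in 1 direction. In Ntn4, 14 of 18 tested PV regions were higher and none lower. Its region of smallest p, chr10:93690103-93690302 inside the gene, averaged 3.4 ± 1.24 CPM in IP, where UF averaged 0.383 ± 0.248 CPM (SD, 4 libraries a group), a log2 fold change of 3.25 ± 0.53 (edgeR adjusted p = 0.000134). Plxna4 had 34 higher and 6 lower of 75 tested regions. In Plxna1, the region chr6:89350263-89350462 averaged 18.9 ± 2.39 CPM in IP against 2.09 ± 0.157 CPM in UF, a log2 fold change of 3.17 ± 0.25 (edgeR adjusted p = 2.73e-06). In Sema7a, chr9:57959487-57959686, 19.5 kb from the start and inside the gene, differed by 2.09 ± 0.3. The region of smallest p of Ephb3 was the promoter region printed above. For Efnb3 and Sema4a it lay in the flanks, at chr11:69561523-69561722 (-2.59 ± 0.3) and chr3:88435611-88435810 (-1.97 ± 0.31), outside the gene itself.

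In SST the Plxnb3 region of smallest p was its promoter, and 5 of 6 tested regions of the gene were lower. In Unc5b, 7 of 16 tested regions were lower and none higher. Its region chr10:60817039-60817238, inside the gene, averaged 3.26 ± 0.561 CPM in IP, where UF averaged 20.4 ± 2.58 CPM (SD, n = 3 each), with a log2 fold change of -2.65 ± 0.21. Unc5d had its region of smallest p at chr8:29034906-29035105 inside the gene, averaging 10.4 ± 0.611 CPM in IP against 0.859 ± 0.0306 CPM in UF (3.57 ± 0.28). In Sema6d, chr2:124639353-124639552 inside the gene differed by 2.15 ± 0.24. Efna1 had 6 of 8 tested regions lower, with the smallest p at chr3:89280103-89280302, within 1 kb of its start (-2.85 ± 0.24), and Efna2 had it in the flank at chr10:80190519-80190718 (-2.25 ± 0.28).

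**Figure D5:**
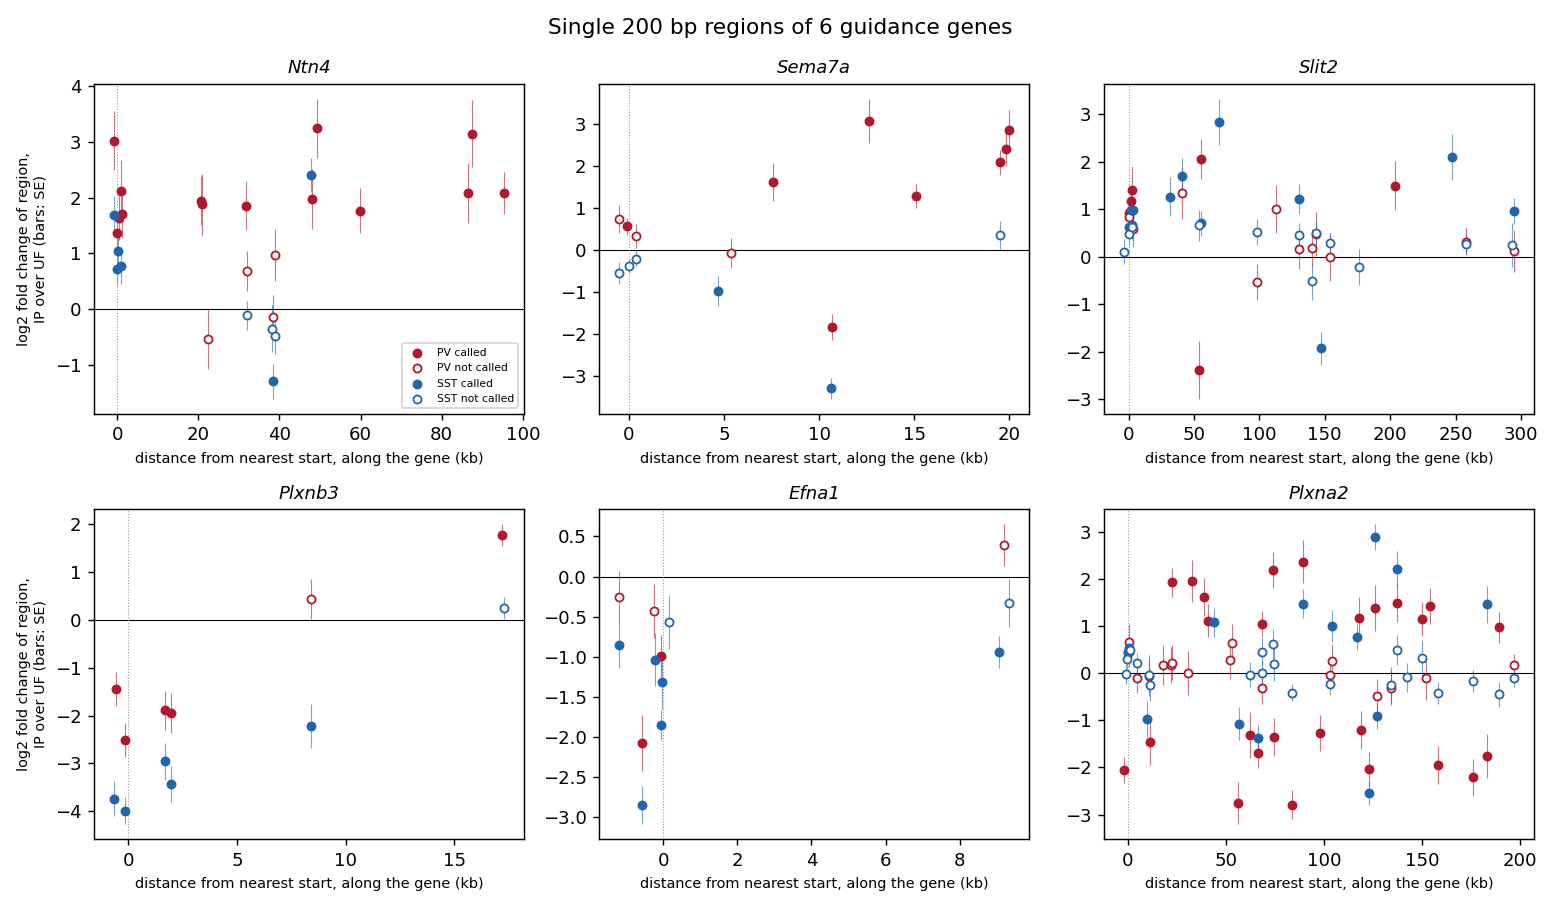
Log2 fold change of IP over UF of each tested 200 bp region (y axis) against its distance from the nearest transcription start in kb (x axis) for Ntn4, Sema7a, Slit2, Plxnb3, Efna1 and Plxna2, in saline PV libraries at 60 min (red) and saline SST libraries (blue); filled points were called. In PV, Ntn4 has 14 regions called higher and none lower, while Plxna2 has 13 of each.

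Genes that act beside the members were read from lists of the same pathways. Of 30 other guidance cues and receptors, 4 were called higher and 3 lower in saline PV IP at 60 min, and 11 and 10 in SST IP; that is 23.3% and 70% called, where 25% and 58.3% of all genes were. Met, the receptor of hepatocyte growth factor, rose in both (1.68 ± 0.3 in PV and 1.12 ± 0.13 in SST), as did the morphogen Shh (1.01 ± 0.2 and 0.89 ± 0.12). Cdon, a Shh co-receptor, fell in PV (-1.2 ± 0.24), and Draxin, a secreted ligand of Dcc, fell in SST (-0.94 ± 0.18). Of 45 cytoplasmic effectors, 8 rose and 1 fell in PV, against 12 and 16 in SST, 20% and 62.2% called. Nothing about either list is read from these shares. The 1 that fell in PV was Ngef, the exchange factor ephexin that acts below Epha4 (-0.88 ± 0.1), and Arhgef11, which plexin B receptors bind, rose (0.85 ± 0.19). In SST the largest changes were falls of Fes (-1.42 ± 0.17), Farp2 (-0.84 ± 0.12) and Vav2 (-0.81 ± 0.12).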

How the data were processed

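Counts were deposited as raw read counts per 200 bp region on mm10, in 1 table for each set of mice. Per the submitters' processing notes, which give no roles, the tools were Bowtie2 2.3.4.3, cutadapt 1.8.3, FastQC 0.11.2, MACS2 2.1.2, deepTools, bedtools 2.25.0, DESeq2 1.18.1 and R 3.4.4; how regions were merged over libraries is not given in the sources used here.

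Region counts were summed over each RefSeq gene with 2 kb on either side (R 4.3.3, GenomicRanges 1.54.1). A region that touches several genes counts for each; 26, 28 and 29 member regions did so in the PV 60 min, SST and PV 24 h tables. The edgeR 4.0.16 quasi-likelihood test ran on all protein-coding genes of the groups compared, with TMM scaling, the total region count as library size, a count filter (filterByExpr, minimum 10 per library and 15 in all) and Benjamini-Hochberg adjustment over all genes tested; a call is an adjusted p under 0.05. Fits at 24 h carry the Iso mark of the title as a term. CPM use the same scaling over each whole table. Counts were also simulated from the test's own model, without an Iso effect or pairing. The median estimate of the larger known changes was near their size. The share of changes called is not given here, so that nothing about power is read from it. The alternatives tried were DESeq2 1.42.0, RLE scaling, no count filter, the replicate number as a block, other gene windows (1 kb around gene ends, no flanks, regions of 1 gene only), 1 fit over all groups of a table, and leaving out each library.

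Each library is 1 mouse per the labels, so that p-values measure spread between mice, although a UF library can come from the mouse of an IP library. Deviations of same-numbered IP and UF libraries correlated at 0.214 to 0.635 in all 4 pairs of saline PV at 60 min, and these numbers were taken to pair the libraries. The other sets did not reach 0.1 in every pair. In PV AMPH at 60 min the correlations were 0.093 to 0.552. There, 3 of 4 IP libraries correlated best with the UF library of their own number, so that pairing is possible in that set too. Replicates differed by more than counting noise, with a chi-square per degree of freedom of 1.61 to 7.61 over 51 pairs.

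The gene families and lists were chosen with earlier results of these data known; the symbol rule itself uses no measured value. Genes named are, in each saline set, the 10 called members at either end of the log2 fold changes, every neuropilin, Slit, Robo, netrin and netrin receptor, the 3 members of smallest p in each AMPH comparison, the 10 of smallest p for the PV and SST difference, and, for regions, the 6 members of smallest p outside chromosome 18. In the non-member lists the 3 called genes with the largest change qualified. Members outside these rules are named to fill out a family count, after their values were seen.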

Additional observations from a re-analysis of the deposited data

Results flagged for a closer look

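Single libraries stood apart from the rest of their group in 6 of 81 sets of 4 values tested with Dixon's criterion, where chance gives about 5%. In saline PV IP at 60 min, replicate 4 had 57 CPM for Slit2, where the others had 87.1 to 91.7 CPM, and 11.6 CPM for Efna2, where the others had 6.97 to 7.07 CPM. Replicate 5 had 135 CPM for Nrp2 against 102 CPM in each of the others, and replicate 1 had 16 CPM for Unc5cl against 18.4 to 18.7 CPM. In saline UF at 60 min, replicate 1 had 252 CPM for Plxna4 against 205 to 213 CPM, and 155 CPM for Dcc against 130 to 134 CPM.

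The IP over UF log2 fold changes of saline PV and SST libraries differed by the joint edgeR test in the 10 members of smallest p. The PV minus SST difference was 1.81 for Sema3g, 1.74 for Plxnb3, 1.51 for Robo4, 1.36 for Sema7a, 1.02 for Ntn4, 0.82 for Plxna1, 0.71 for Unc5b and 0.7 for Sema6c, and -0.8 for Epha3 and -0.95 for Dcc. In these values the table and the Cre driver cannot be told apart. The PV total of Plxnb3 sums regions called in both directions, most of them lower as in SST.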

How the results depend on the processing

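Of 2462 values of named genes recomputed under an alternative, 2359 kept direction and side of the threshold, 78 lost their call, 21 gained one and 4 reversed. Within 1 kb of gene ends, the SST log2 fold changes of Slit1 and Ntn1 became -1.93 and -0.36 and that of Dcc in PV AMPH at 24 h 0.11; with regions of 1 gene only, Efnb3 in SST became 0.17. The replicate block gave 22 higher and 13 lower calls in saline PV at 60 min, 14 lower PV against SST differences, and no AMPH call. In the sets whose numbers were not taken to pair libraries, the block gave 21 and 17 calls (PV AMPH at 60 min), 29 and 18 (SST), 9 and 8 (saline at 24 h) and 15 and 8 (AMPH at 24 h). DESeq2 called 7 members higher in saline PV at 24 h, and gene ends only called 6. Lower PV against SST differences were 11 with DESeq2 and 4 with gene ends only, which gave 6 higher. For gene ends fewer regions enter; the cause of the other shifts was not tested.

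Leaving out 1 library gave 11 to 17 higher and 7 to 10 lower calls in saline PV at 60 min, 10 to 19 and 8 to 14 after AMPH, 22 to 29 and 14 to 20 in SST, 5 to 11 and 5 to 8 in saline at 24 h, 9 to 14 and 6 to 10 in AMPH at 24 h, and 8 to 13 and 4 to 12 for PV against SST. The AMPH comparisons stayed at 0. Member regions ran from 307 to 355 higher and 238 to 329 lower in PV, and 284 to 341 and 198 to 229 in SST. After AMPH at 60 min, 10 and 8 members were called without UF replicate 1, and 8 lower without UF replicate 3. The 12 lower PV against SST differences came without IP replicate 1, and the 4 without UF replicate 1 or 3 of SST. Low counts limit Robo4, Sema3g, Ephb4 and Epha2, and the shallowest library, a saline IP at 24 h, held 0.651 M (mega) counts.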
